A study of Mus musculus with 21 samples.

Results

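The genes described here encode the machinery of oxidative phosphorylation, the respiratory chain and the ATP synthase of the inner mitochondrial membrane. They were taken by gene symbol: Nduf subunit genes of complex I, the 4 Sdh genes of complex II, Uqcr genes and Cyc1 of complex III, Cox4 to Cox8 genes of complex IV, Atp5 genes of complex V, and the mitochondrially encoded Nd, Co, Cytb and Atp genes. The rule found 98 of the 22050 entries in the table, 85 of them nuclear and 13 mitochondrial. Of these, 92 had a mean normalized count of at least 1 and were tested, 79 nuclear and all 13 mitochondrial.

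Expression was measured in GFP+ keratinocytes sorted from the dorsal skin of mice that carried K5-rtTA, tet-GFP and tet-p16, named p16, and of mice that carried K5-rtTA and tet-GFP, named control. All mice carried the rtTA activator under the keratin 5 promoter, which acts in basal epidermis and hair follicles, and the doxycycline-dependent GFP gene, and all received doxycycline from 3 weeks of age for 6 months. The p16 mice also carried a doxycycline-dependent human p16 gene, so that the GFP gate and not p16 itself chose the cells. Each of the 4 samples per group held about 80000 cells pooled from 3 mice of mixed FVB, C57Bl and 129sv background, after CD140a+, CD45+ and CD31+ cells had been gated out. The comparison asked which transcripts differ in keratinocytes after chronic p16 induction, and is read here complex by complex and genome by genome.

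Complexes I to IV pass electrons from NADH and succinate to oxygen and, except complex II, pump protons across the inner membrane. Complex V uses the returning protons to make ATP. Mitochondrial DNA encodes a few hydrophobic core subunits of complexes I, III, IV and V, which are made from long transcripts that are cut into mRNAs. The nucleus encodes every other subunit, all of complex II included, so that each mixed complex needs both genomes. Keratinocytes of the basal layer carry respiring mitochondria, and skin also makes use of glycolysis.

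Total counts ranged from 1760953 to 3414362 in control libraries and from 2884544 to 3202975 in p16 libraries, and control replicates 2 and 4 were the shallowest. The human p16 transgene, hsCDKN2A in the table, had normalized counts of 0.7, 1.3, 2.5 and 1.5 in the control libraries and of 1.6, 10.1, 16 and 7.4 in the libraries labelled p16. The library labelled p16 replicate 1 thus lay within the control values for the transgene, while Cd34, a hair-follicle stem cell marker, was at 8.8 in it and between 121.9 and 238.9 in controls. The marker levels of other skin cell types also differed between the groups. The summed counts of 8 sebaceous-gland markers were between 1383 and 1698 in controls and between 491 and 742 in p16 libraries, with 5 of 7 tested members called lower. Of 10 hair-follicle markers 5 were called lower and 8 had a log2 fold change below 0. Postn and Gli1 were above 0, at 0.73 and 0.53, and were not called. The sums of all 10 were 13225 to 19263 in controls and 10911 to 14687 in p16. Krt17 and Krt79, which were not called (-0.25 and -0.12), made up most of these sums. Of 6 melanocyte markers 2 were called lower, with sums of 70.9 to 430 and of 13.9 to 85.9. The sums of 8 fibroblast markers were 10.8 to 27.3 and 42.8 to 221, with Dcn called higher and Lum at 0 in all libraries. Without Dcn the fibroblast sums were 6.6 to 21.4 in controls and 6.6 to 17.7 in p16, and 2 of 4 tested markers were below 0. Col1a2 had a log2 fold change of -1.51 (adjusted limma p of 0.0571). Col1a1 ran the other way, at 1.09 (adjusted limma p of 0.285), and both had low counts. The part of these cell types in the values given next was not tested, and in bulk samples fewer cells of a type and less RNA per cell cannot be told apart. Immune, endothelial and skeletal-muscle markers had no called member, and the interfollicular keratinocyte list had 1 of 10, Krt15, called lower. Krt15 had 8442.8, 13136.4, 8594.2 and 12321.7 in controls and 7064.1, 6756.7, 6607.4 and 7834.0 in p16. Its highest values were those of control replicates 2 and 4, the shallowest libraries.

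No oxidative phosphorylation gene passed an adjusted p of 0.05 in limma in either direction, against 1.24% of all 12782 tested genes called higher and 2.61% called lower. At an unadjusted limma p under 0.05, 10 of 92 were lower in p16 (10.9%) and 1 was higher (1.09%), against a background of 8.93% of all genes lower and 7.02% higher. The count of 10 fell to 3 without control replicate 4, to 5 without the library labelled p16 replicate 1, and to 4, with 2 higher, under scaling by total counts. Without p16 replicate 3 it was 7, with Ndufb7, Ndufb9 and Ndufb2 as the nuclear genes. Without both replicates 3 it was 9, of which Ndufb7 alone was nuclear and the others were mitochondrial. By edgeR and by DESeq2 the adjusted counts were also 0 and the unadjusted counts were 12 lower and 1 higher with each tool. The p16 values lay wholly below the control values for 6 of the 92 (6.52%), where 5.63% of all genes did so, and wholly above them for 0, where 4.19% of all genes did so. The shares of lower genes before adjustment and of non-overlapping lower genes were thus near the background. The log2 fold change was below 0 for 73 of 92 (79.3%), while 50.4% of all genes were below 0. The median was -0.06 over the 79 nuclear genes and -0.23 over the 13 mitochondrial genes, and 0.00 over all genes tested.

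**Figure D1:**
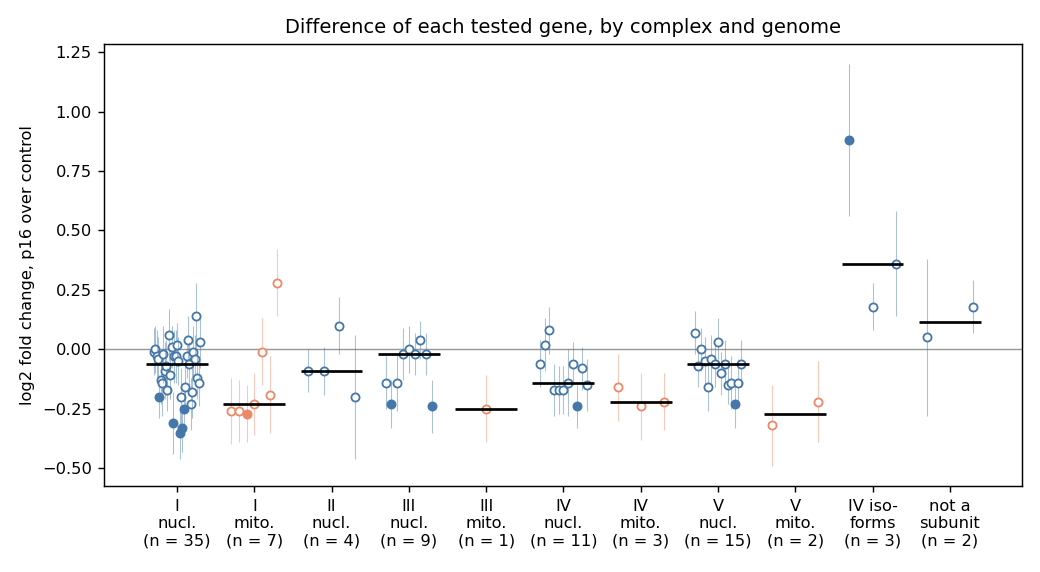
Log2 fold change of each tested gene in p16 over control, by complex and by genome. Points are genes with the SE of the limma fit, filled at an unadjusted p under 0.05, blue for nuclear and orange for mitochondrial genes, and black bars are medians. The 4 mitochondrial groups have medians between -0.27 and -0.22, and the nuclear groups of complexes I to V between -0.14 and -0.02.

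Complex I, which takes electrons from NADH, had 35 nuclear members, all tested, and 28 of them were below 0. Their normalized counts summed to 13709 ± 609 in controls and to 12955 ± 921 in p16 (SD, n = 4 each), a ratio of 0.945. The 7 nuclear core subunits, which carry the flavin and the iron-sulfur clusters, lay between -0.14 and 0.14 with a median of -0.04, and none reached an unadjusted p of 0.05. Of the 28 accessory subunits, which surround the core and are needed for its assembly and stability, 23 were below 0 and the median was -0.08. At an unadjusted limma p under 0.05, 5 of the 28 were lower, where 8.93% of all genes were. The difference between core and accessory subunits was not tested.

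Ndufb7 (ENSMUSG00000033938, chr8:83566671-83571626), an accessory subunit of the membrane arm on the intermembrane-space side, had normalized counts of 158.8, 146.3, 168.7 and 186.4 in controls and of 127.9, 128.0, 128.6 and 129.1 in p16. All 4 p16 values lay below the lowest control and close together. The log2 fold change was -0.35 ± 0.11 (SE), with an adjusted p of 0.1 by limma and of 0.0873 by edgeR. Ndufb9 (ENSMUSG00000022354, chr15:58933756-58939488), another membrane-arm subunit, had 427.3, 418.4, 443.5 and 490.4 in controls and 355.0, 373.2, 302.4 and 393.0 in p16. Again no p16 value reached a control value, and the log2 fold change was -0.33 ± 0.10 with an adjusted p of 0.108. Neither gene passed the threshold under any of the 18 alternatives. Their p before adjustment, by limma, edgeR or DESeq2, was under 0.05 in 18 and in 17 of these, the most of all members.

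Ndufb2, Ndufc1 and Ndufa13 were the 3 other accessory subunits lower before adjustment. Ndufb2 had 153.6, 109.1, 147.8 and 142.1 in controls and 95.9, 114.0, 117.0 and 116.8 in p16, so that control replicate 2 lay among the p16 values (log2 fold change -0.31 ± 0.13, adjusted p of 0.272). Ndufc1, one of the smallest subunits, had 341.2, 288.8, 386.7 and 348.3 in controls and 304.6, 293.6, 263.3 and 277.9 in p16 (-0.25 ± 0.11, adjusted p of 0.248). Control replicate 2 again sat at the p16 level. Ndufa13, also known as GRIM-19, had 428.8, 367.0, 367.5 and 397.2 in controls and 335.0, 352.9, 312.1 and 354.4 in p16, with no overlap (-0.20 ± 0.09, adjusted p of 0.308). Ndufa8, a cysteine-rich subunit, did not overlap either, at 298.2, 277.2, 290.6 and 293.3 against 251.1, 263.1, 245.6 and 270.5 (-0.17 ± 0.09, adjusted p of 0.386). Ndufa6, the nuclear complex I gene with the highest mean count, had 806.4, 834.2, 761.7 and 753.2 in controls and 779.6, 737.0, 571.0 and 908.5 in p16, and the p16 values spanned those of all controls.

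**Figure D2:**
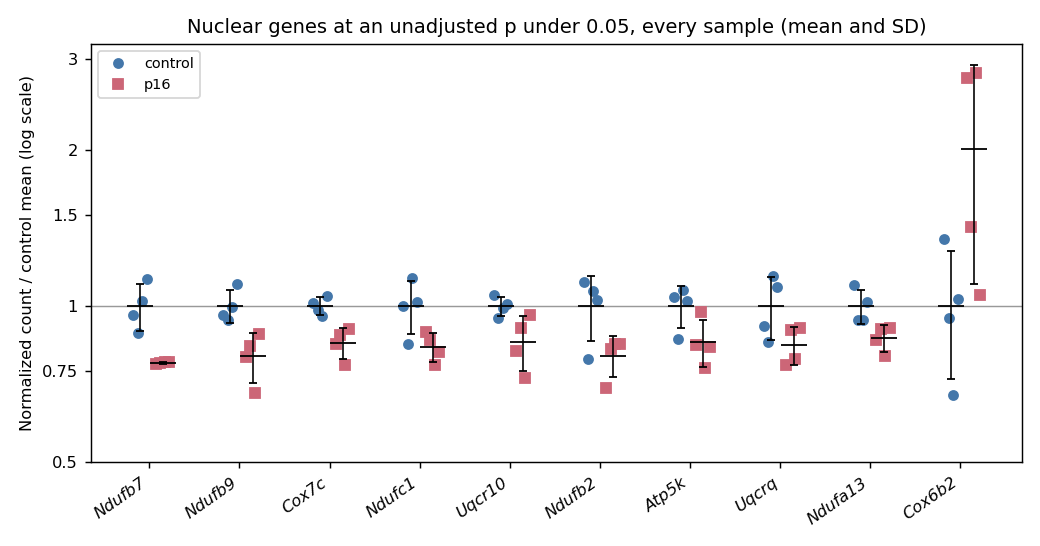
Normalized counts of the nuclear genes at an unadjusted limma p under 0.05, each divided by its control mean, on a log axis. Circles are the 4 control and squares the 4 p16 libraries, with the mean and SD in black. Ndufb7, Ndufb9, Cox7c and Ndufa13 do not overlap between the groups, while the p16 libraries of Cox6b2 range from 15.6 to 41.7 normalized counts.

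Complex II, succinate dehydrogenase, is encoded by the nucleus alone and also belongs to the citric acid cycle. Its 4 genes summed to 825 ± 64.1 in controls and 807 ± 25.8 in p16, and none differed before adjustment. Sdha, the flavoprotein, had 224.0, 233.6, 244.7 and 259.7 in controls and 235.9, 219.4, 219.9 and 229.4 in p16 (-0.09 ± 0.09). Sdhb, the iron-sulfur subunit, had 246.3, 223.3, 267.3 and 236.8 against 218.3, 221.0, 235.0 and 238.4 (-0.09 ± 0.10). Both ranges overlapped. Of the membrane anchors, Sdhc had 277.4, 227.2, 292.3 and 342.2 against 286.2, 320.1, 289.1 and 318.2 (0.10 ± 0.12). Sdhd had 88.3, 48.8, 50.1 and 39.7 against 42.4, 74.2, 42.6 and 36.2 (-0.20 ± 0.26), where 1 library in each group stood above its others. The adjusted p was 0.73 or more for each of the 4.

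Complex III passes electrons from ubiquinol to cytochrome c. Of its 9 nuclear genes 8 were below 0, but the median was only -0.02 and the sum was 5920 ± 292 in controls and 5671 ± 268 in p16. The genes lower before adjustment, Uqcr10 and Uqcrq, encode small subunits of 64 and 82 residues. Uqcr11, Uqcrh and Uqcrb, with 56, 89 and 111 residues, were not lower before adjustment (log2 fold changes of -0.14, -0.02 and -0.02). Uqcr10 had 426.6, 385.0, 404.2 and 411.0 in controls and 332.6, 368.5, 296.1 and 391.4 in p16 (-0.23 ± 0.10, adjusted p of 0.272). Uqcrq had 759.6, 705.8, 949.6 and 901.4 against 637.2, 744.8, 656.1 and 753.1 (-0.24 ± 0.11, adjusted p of 0.295). In each of these, at least 1 p16 library overlapped the controls. Uqcrfs1, the Rieske iron-sulfur protein, was nearly constant at 1009.6, 1072.9, 1080.7 and 1118.4 in controls and 1106.6, 1101.7, 1086.2 and 1099.3 in p16 (0.04 ± 0.08).

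Complex IV, cytochrome c oxidase, reduces oxygen to water. Its 11 generally expressed nuclear genes, Ndufa4 included, had the lowest nuclear median of the 5 complexes, -0.14, with 9 below 0 and sums of 11819 ± 679 and 10839 ± 766, a ratio of 0.917. Cox7c (ENSMUSG00000017778, chr13:86044816-86046904) had 1808.6, 1749.2, 1703.8 and 1867.0 in controls and 1508.0, 1565.4, 1371.7 and 1610.7 in p16. This small subunit did not overlap between groups, and its log2 fold change was -0.24 ± 0.09 with an adjusted p of 0.179. It was the single general complex IV gene lower before adjustment. Cox8a, the one with the highest mean count, had 2396.9, 2184.3, 2373.6 and 2510.2 against 2265.9, 2205.6, 2027.8 and 2432.1 (-0.08 ± 0.09), and the groups overlapped.

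Of the complex IV isoforms of particular tissues and their relatives 3 were tested. None had a log2 fold change below 0, none passed an adjusted p of 0.05, and Cox6b2 alone had an unadjusted p under 0.05. Cox6b2, the testis isoform of Cox6b1, had 20, 14.1, 10 and 15.3 in controls and 40.8, 21.1, 41.7 and 15.6 in p16 (0.88 ± 0.32, adjusted p of 0.179). Its p16 libraries 1 and 3 were high, whereas p16 replicate 4 lay within the controls. Without p16 replicate 4 the log2 fold change was 1.14 with an adjusted p of 0.0437, the single call in any alternative, and over the 18 alternatives the adjusted p ranged from 0.0437 to 0.594. Ndufa4l2, a relative of Ndufa4 known to be induced by hypoxia, had 869.4, 839.3, 1093.3 and 996.1 against 1274.5, 922.9, 859.2 and 2129.5 (0.36 ± 0.22), and 0.09 without p16 replicate 4, its highest library. Cox7a2l, a supercomplex assembly factor, had 1798.9, 1685.0, 1514.2 and 1824.2 against 1778.2, 1841.8, 1872.6 and 2220.0 (0.18 ± 0.10, adjusted p of 0.432). Cox7a1, the muscle and brown-fat isoform, was too low to test. It had counts of 5, 1, 2 and 1 in the p16 libraries and of 0 in all controls, where 3 counts are the limit that a count of 0 allows, so that no fold is given. Cox4i2 and Cox6a2 had at most 1 count in any library, and Cox7b2, Cox8b and Cox8c had 0 in all 8. Muscle markers were near 0 as well, with summed counts of 3.9 to 16.7 in controls and 10.6 to 18.4 in p16 and with Acta1, Myh1, Myh4 and Tnnt3 at 0. Of the 6 brown-fat markers Ucp1, Adipoq, Fabp4 and Cfd were at 0 in all libraries, and Cidea, which sebocytes also express, was called lower in p16.

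Complex V, the ATP synthase, had 15 nuclear genes with a median of -0.06, of which 13 were below 0, and sums of 17053 ± 836 in controls and 16300 ± 707 in p16. The 5 genes of the catalytic F1 head had a ratio of sums of 0.983 and the 10 of the stalks and membrane part of 0.941. Atp5k, subunit e of the membrane part, had 690.6, 573.7, 714.1 and 678.3 in controls and 558.9, 646.5, 505.4 and 553.3 in p16 (-0.23 ± 0.10, adjusted p of 0.285), with p16 replicate 2 among the controls. Atp5j, coupling factor 6 of the stalk, did not overlap, at 1799.7, 1726.1, 1800.7 and 1928.1 against 1675.1, 1673.9, 1555.2 and 1639.5 (-0.15 ± 0.08, adjusted p of 0.422). Atp5g2, 1 of 3 genes for the same mature ring subunit c and the nuclear complex V gene of highest mean count, was level at 2111.3, 1968.7, 1748.9 and 2128.2 against 2218.8, 1806.7, 1979.0 and 2113.1. Reads of any sequence shared between such genes, or with processed pseudogenes, could have been left uncounted or assigned to either, so that their values are uncertain. The name rule also took Atp5s and Atp5sl, which are not ATP synthase subunits. Atp5s had 38.6, 35.9, 27.6 and 13.8 against 44.8, 25.8, 17.7 and 29.6, and Atp5sl had 118.0, 130.9, 105.2 and 122.2 against 137.5, 133.5, 125.9 and 143.1 (0.18 ± 0.11).

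The mitochondrial genes had the lower median, and their values moved with the depth of the control libraries. The normalized counts of the 13 genes summed to 76977, 111758, 80571 and 100358 in control replicates 1 to 4 and to 75600, 77807, 86866 and 69042 in p16 replicates 1 to 4. Only the control replicates 2 and 4, with total counts of 2068248 and 1760953, stood above every p16 library. The nuclear sums did not follow this pattern, at 52799, 48995, 52165 and 54623 in controls and 49657, 50022, 46104 and 54185 in p16. The mitochondrial sum divided by the nuclear sum was 1.46, 2.28, 1.54 and 1.84 in controls and 1.52, 1.56, 1.88 and 1.27 in p16, and the groups overlapped. As a share of all counts the mitochondrial genes took 3.53 ± 0.544% in controls and 3.04 ± 0.31% in p16, and the nuclear genes 2.00 ± 0.102% and 1.96 ± 0.118%.

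The counts themselves approached a common maximum. No gene in any library had more than 12279 counts. Krt5, a basal keratin, had between 11761 and 12279 and mt-Atp6 between 10728 and 12195 in all 8 libraries, although the totals differed 1.94-fold. Of the 20 genes with the highest mean count, 9 were mitochondrial oxidative phosphorylation genes. The other 8 of these were less level than mt-Atp6, and the ratio of their highest to their lowest count ran from 1.53 for mt-Co1 (7012 to 10705) to 1.82 for mt-Nd2 (5751 to 10443). Over all genes, the median log2 ratio of control replicates 2 and 4 to control replicates 1 and 3 was 0.01 at mean counts of 1000 to 3000, 0.13 at 3000 to 5000, 0.26 at 5000 to 7000, 0.36 at 7000 to 9000 and 0.50 above 9000. None of the nuclear genes described here had a mean count above 3000.

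**Figure D3:**
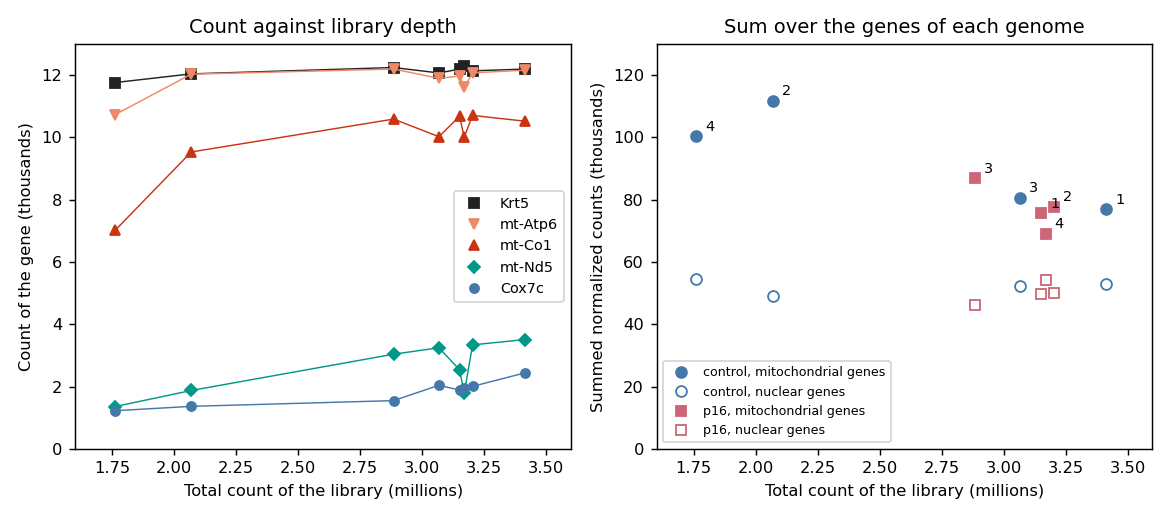
Left, counts of Krt5, mt-Atp6, mt-Co1, mt-Nd5 and Cox7c against the total count of each of the 8 libraries, with lines joining the libraries in order of depth. Right, summed normalized counts of the mitochondrial (filled) and nuclear (open) genes against the total count, with replicate numbers. Krt5 and mt-Atp6 stay between 10728 and 12279 counts at every depth, and the mitochondrial sum is highest in the shallow control replicates 2 and 4.

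Control replicates 2 and 4 were next left out. This alternative was chosen with their low depth and high mitochondrial sums known, so that a move of the mitochondrial values towards 0 followed from the choice and is given as a description. The mitochondrial median moved from -0.23 to -0.04, 10 of 13 genes were below 0, and the ratio of p16 to control sums moved from 0.837 to 0.982. The nuclear median was then -0.10, 61 of 79 genes were below 0 as before, and the ratio of sums was 0.953 in place of 0.959. A correction of all counts for an assumed ceiling of 12288 gave a mitochondrial median of -0.16 and a nuclear median of -0.05. With it mt-Nd3 and mt-Nd2 stayed near their reported values, at -0.25 and -0.24, mt-Atp6 moved from -0.32 to -0.17, and mt-Co1 from -0.16 to 0.08. This ceiling lies just above 12279, the highest count seen, and is not given in the sources used here. The correction changes counts near the ceiling strongly. The count of mt-Atp6 reached 12195, so that its corrected value is uncertain. The part of the count maximum in the mitochondrial values was not tested further.

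Of the complex I genes of the mitochondrial genome, which encode the proton-pumping membrane core, mt-Nd3 was the one lower before adjustment. It had 8132.7, 11284.5, 8309.4 and 9687.8 in controls and 7749.3, 7968.4, 8238.0 and 6890.1 in p16 (-0.27 ± 0.12, adjusted p of 0.285), and -0.10 ± 0.11 without control replicates 2 and 4. mt-Nd1 had 8126.0, 12077.6, 8387.9 and 10228.6 against 7753.3, 7916.9, 9424.3 and 7145.0 (-0.26 ± 0.14, and -0.04 without those libraries). mt-Nd2 had 7746.9, 10125.7, 7963.6 and 8786.4 against 6718.7, 7596.8, 8547.4 and 6063.8 (-0.26 ± 0.13, and -0.13 without them). In each, control replicates 2 and 4 held the highest values. mt-Nd4 followed the same order, with 8132.7, 11701.6, 8836.4 and 10902.4 against 8020.4, 8253.4, 9664.6 and 7538.8 (-0.23 ± 0.13, and -0.02 without them).

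The same order held for the core genes of the other complexes. mt-Cytb, the cytochrome b of complex III, had 7925.0, 12358.7, 8767.1 and 10518.9 against 8077.1, 8284.6, 9524.5 and 7148.3 (-0.25 ± 0.14, and -0.02 without control replicates 2 and 4). mt-Co1, which carries the oxygen-reducing centre of complex IV, had 7804.8, 12232.9, 8371.2 and 10712.9 against 8536.1, 8358.0, 9388.0 and 8233.6, and its log2 fold change went from -0.16 ± 0.14 to 0.09 without them. mt-Co2 had 8162.4, 12390.8, 8502.3 and 10593.8 against 8337.0, 8340.9, 9299.3 and 7270.0 (-0.24 ± 0.14, then -0.01). For these genes some p16 values lay among those of control replicates 1 and 3. mt-Co3 had 7893.8, 10447.8, 7407.4 and 9282.9 against 7651.8, 7531.2, 7789.3 and 6784.9 (-0.22 ± 0.12, then -0.04). mt-Atp6, the proton-channel subunit a of complex V and the member with the highest counts, had 9018.4, 15440.0, 9935.5 and 16390.3 against 9571.5, 9426.9, 10812.8 and 9541.7. Its log2 fold change of -0.32 ± 0.17 became 0.05 ± 0.11 without them, so that it turned direction.

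The 4 mitochondrial genes of lower count behaved otherwise, with control replicates 2 and 4 not the highest controls in any of them except mt-Nd6, which was highest in control replicate 2. mt-Nd5, with 2601.6, 2402.4, 2709.4 and 2071.7 against 2031.7, 2606.2, 2693.7 and 1469.3, had a log2 fold change of -0.19 ± 0.16 and of -0.31 without those libraries. mt-Atp8, which overlaps mt-Atp6 on the same transcript, had 719.6, 639.1, 544.5 and 492.0 against 514.1, 629.3, 592.3 and 346.1 (-0.22 ± 0.17, then -0.30). mt-Nd4l, which overlaps mt-Nd4, had 583.8, 515.9, 698.2 and 568.3 against 512.5, 709.7, 691.6 and 467.0 (-0.01 ± 0.14, then -0.12). The library labelled p16 replicate 4 was the lowest of all 8 in mt-Nd5, mt-Atp8 and mt-Nd4l, and leaving it out gave mt-Nd4l a log2 fold change of 0.10. Reads of the overlaps with mt-Atp6 and mt-Nd4 could have been left uncounted or assigned to either gene, so that the values of mt-Atp8 and mt-Nd4l are uncertain. mt-Nd6, the single protein gene on the other strand of mitochondrial DNA, was the one mitochondrial gene above 0. It had 129.1, 141.2, 138.6 and 122.2 in controls and 126.3, 185.0, 200.4 and 143.1 in p16 (0.28 ± 0.14, adjusted p of 0.374, and 0.26 without control replicates 2 and 4). Its end overlaps that of mt-Nd5 on the opposite strand, and since the use of strand in counting is not given in the sources used here, reads of the overlap cannot be told apart. No mitochondrial gene passed an adjusted p of 0.05 with or without control replicates 2 and 4.

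**Figure D4:**
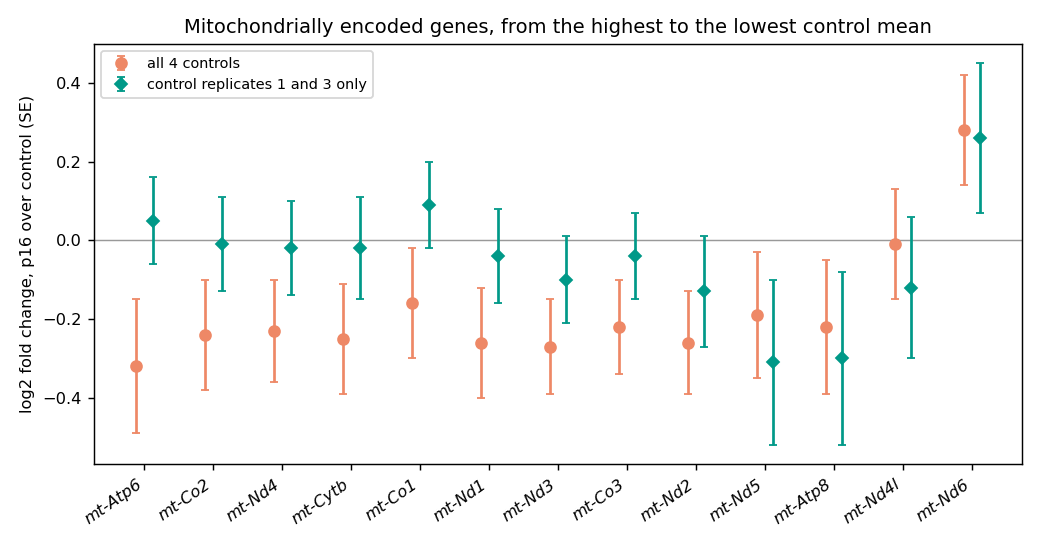
Log2 fold change with SE of the 13 mitochondrial genes, ordered from the highest to the lowest control mean, with all 4 controls (circles) and with control replicates 1 and 3 alone (diamonds). For the 9 genes of highest count the diamonds lie nearer to 0, between -0.13 and 0.09, and for mt-Nd5, mt-Atp8 and mt-Nd4l they lie further below it.

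Among the nuclear genes, those encoding small proteins were below 0 more often. Of the 44 tested genes for proteins under 150 residues, by GENCODE M21, 38 were below 0 (86.4%), the median was -0.11 and 8 were lower before adjustment (18.2%). Of the 35 for longer proteins, 23 were below 0 (65.7%), the median was -0.04 and 1, Ndufb9, was lower before adjustment (2.86%). The table as a whole showed a weaker difference of this kind. Of 901 tested genes for proteins under 150 residues 58% were below 0 with a median of -0.04 and 11% lower before adjustment, against 49.8% of 11795 longer ones with a median of 0.00 and 8.8% lower. Over the 79 nuclear genes Spearman's rho between log2 fold change and protein length was 0.40, and over all genes with a length it was 0.01. Genes of 1 set of libraries share their depth and scaling and are not independent replicates, so these values are a description. The length of 150 residues was chosen with these data known.

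**Figure D5:**
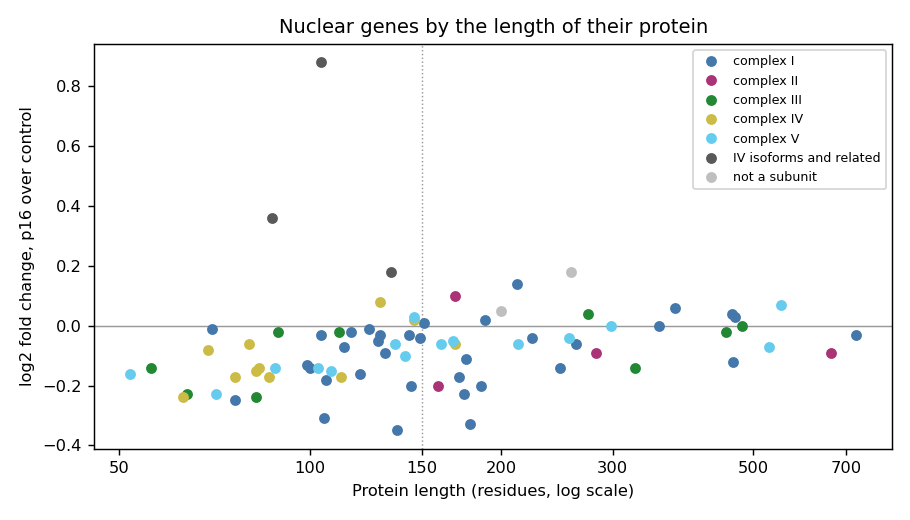
Log2 fold change of the 79 tested nuclear genes against the length of the protein on a log axis, coloured by complex, with the limit of 150 residues dotted. Of the 44 shorter genes 38 lie below 0, and of the 35 longer ones 23.

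For 2 of the lower nuclear genes the text shows a stretch of the promoter, because many oxidative phosphorylation genes are known to be driven by NRF1, by ETS factors of the GABP kind and by YY1. Of the 85 nuclear genes, 69 had a RefSeq promoter (GRCm38.p6), and the 250 bases before the start were searched on both strands for GCGCATGC (NRF1 type), CCGGAAG (ETS type) and AAGATGGC (YY1 type). Any of the 3 was found for 19 of 69 (27.5%), against 11.5% of all 27025 genes with a promoter. For the NRF1 type it was 8 (11.6%, against 2.56%), for the ETS type 12 (17.4%, against 7.83%) and for the YY1 type 2 (2.9%, against 1.83%). Among the 9 nuclear genes lower before adjustment 7 had a promoter, and 2 of these held a match, a share near that of all 69. A match is a description of letters and not a binding site. Capitals mark the matches, 5′ to 3′ on the strand of the gene. Distances are counted from the RefSeq start, which lies 87 bases inside the GENCODE M21 gene for Ndufb7 and 49 bases inside it for Atp5k, so that the Ndufb7 stretch is within the GENCODE gene and the Atp5k stretch spans its start.
Ndufb7, chr8:83566727-83566756, plus strand, ETS type 20 bases before the RefSeq start: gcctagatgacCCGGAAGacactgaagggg
Atp5k, chr5:108434430-108434459, minus strand, NRF1 type on both strands, overlapping, from 50 bases before the RefSeq start: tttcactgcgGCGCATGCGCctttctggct

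Other genes of the pathway, from lists outside the name rule, gave no call at an adjusted p of 0.05 in limma. Of 8 tested further subunits and carriers 6 were below 0, with a median of -0.14. Cycs, cytochrome c, which carries electrons from complex III to complex IV, had 922.1, 926.6, 1007.2 and 1048.1 in controls and 805.2, 869.0, 777.6 and 800.8 in p16, with no overlap (-0.26 ± 0.09, adjusted p of 0.126). Usmg5, a small membrane subunit of the ATP synthase also called DAPIT, had 615.7, 472.3, 571.3 and 537.8 against 432.6, 471.6, 398.1 and 437.4 (-0.33 ± 0.10, adjusted p of 0.0948), also with no overlap. Both, named after their values were seen, were lower in all 4 p16 libraries than in any control, as were 5.63% of all genes. For Usmg5 the groups nearly met, at 472.3 in control replicate 2 and 471.6 in p16 replicate 2. Of 48 tested assembly factors 27 were below 0, with a median of -0.04. Before adjustment 4 of the 48 were higher and 1 lower, where 7.02% of all genes were higher and 8.93% lower. Acad9, the lower one, had 442.1, 268.2, 475.2 and 521.0 in controls and 167.9, 229.5, 335.2 and 336.3 in p16. Its groups overlapped (-0.69 ± 0.23, adjusted p of 0.126). Sco2, a copper chaperone of complex IV, had 126.9, 139.9, 124.4 and 125.3 against 170.3, 170.2, 155.2 and 184.2, with no overlap and the opposite direction (0.39 ± 0.11, adjusted p of 0.058). The 22 genes of mitochondrial biogenesis and mitochondrial DNA expression, among them Tfam, Polrmt and Ppargc1a, had a median of 0.03 with 10 below 0 and none lower or higher before adjustment. The 18 genes of pyruvate dehydrogenase and the citric acid cycle had a median of 0.01, 9 below 0, and sums of 6891 ± 230 and 6866 ± 182.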

How the data were processed

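The authors sorted GFP+ keratinocytes, prepared 3′ libraries by an adapted CEL-Seq2 protocol and aligned reads to GRCm38. The submitters' processing notes name TopHat2, HTSeq and DESeq2. The labels name CEL-Seq for replicates 1, 2 and 4 of both groups but an Illumina RNA sequencing protocol for replicate 3 of both, so that like preparation of replicate 3 is unsure. The deposited signal values are gene counts scaled by 1 size factor per library and rounded to 1 decimal, and whole counts were recovered for 99.93% to 100% of values (tolerance 0.05). The use of molecular identifiers and strand is not given in the sources used here. The table's mean, statistic and p-value columns were not used, and 13 samples of a second profiling were not analysed here.

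Groups followed the labels. Genes with a mean of at least 1 (12782) were fitted with limma 3.58.1 (eBayes with trend, R 4.3.3) on log2(normalized count + 1) without a replicate block, so folds of low genes are understated, and p-values were Benjamini-Hochberg adjusted over all of them. edgeR 4.0.16 and DESeq2 1.42.0 were run on recovered counts. Other alternatives were a pseudocount of 0.1, no filter, total-count scalings, a replicate block and libraries left out, and, added after the data were seen, leaving out control replicates 2 and 4 and a ceiling correction. The script was tested on simulated data. Libraries of a group differed by more than sampling noise (chi-square per degree of freedom of 3.05 to 8.96); each pools 3 mice, and they came from 3 experiments according to the authors. Positions and lengths are those of GENCODE M21 (GRCm38). Named were genes at an adjusted or unadjusted p under 0.05 or without overlap, all 13 mitochondrial and 4 Sdh genes, the highest nuclear gene of each complex, and isoforms and non-subunits with any count. Members and lists were chosen with earlier results of these data known.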

Additional observations from a re-analysis of the deposited data

Results flagged for a closer look

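In 3 of 78 groups of 4 samples checked, 1 library stood apart from the other 3 by more than Dixon's 95% limit, a rate that chance alone gives in about 1 group in 20. Ndufb2 in p16 replicate 1 was low, at 95.9 against 114.0 to 117.0 in the other p16 libraries. Sdhd in p16 replicate 2 was high, at 74.2 against 36.2 to 42.6. mt-Atp6 in p16 replicate 3 was high, at 10812.8 against 9426.9 to 9571.5.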

How the results depend on the processing

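Adjusted calls were 0 lower under all 18 alternatives and 0 higher under all but 1, and ranged from 0 to 1 when single libraries were left out (1 without p16 replicate 4, Cox6b2). Genes higher before adjustment numbered 1 in the reported fit, 2 without a filter on low values, with scaling by total counts, with that scaling less mitochondrial genes and with the replicate block, 0 without control replicates 2 and 4, and 1 to 2 with single libraries left out. Genes lower before adjustment numbered 10 in the reported fit, 4 under both scalings by total counts (a split of 2 higher to 4 lower), and 3 to 11 with single libraries left out: 3 without control replicate 4 and 5 without the library labelled p16 replicate 1. Between 49 and 67 of 79 nuclear genes were below 0 in all settings, 49 without p16 replicate 3, without both replicates 3 and with scaling by total counts, where 44.7% of all genes were. The nuclear median stayed between -0.10 and -0.02 and the mitochondrial median between -0.35 and -0.04. Leaving out both replicates 3 gave the mitochondrial -0.35 and the nuclear -0.02, which scaling by total counts also gave. In that setting 9 genes were lower before adjustment, Ndufb7 alone of them nuclear.

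Same-numbered samples correlated at 0.004 to 0.083 in their deviations, not every sample best with its own number, so the numbers were not taken as pairs. The replicate block gave 10 lower and 2 higher before adjustment and changed no adjusted call.

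Of 666 single-gene values for 37 genes 645 kept direction and side of the threshold. Reversed in at least 1 setting were mt-Nd4l (0.01 with DESeq2, 0.03 and 0.02 with the scalings by total counts, 0.00 with the ceiling correction, -0.10 to 0.10 with single libraries left out), mt-Co1 (0.09 without control replicates 2 and 4, 0.08 with the correction), mt-Atp6 (0.05 without control replicates 2 and 4), Atp5g2 (-0.02 without both replicates 3, -0.03 to 0.08 with single libraries left out), Atp5s (-0.02 with edgeR, -0.22 without control replicates 2 and 4, -0.26 to 0.26 with single libraries left out), Ndufa6 (0.01 without both replicates 3, -0.19 to 0.03 with single libraries left out) and Sdhd (-0.42 to 0.03 with single libraries left out). The cause was not tested. No count exceeded 12279, and mt-Atp6 stayed close to it at every depth.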

Other observations

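Of 76 tested genes of the mitochondrial ribosome, which translates the mitochondrial mRNAs, 53 were below 0 with a median of -0.04. Mrps21 had 299.0, 272.1, 279.8 and 284.2 normalized counts in controls and 263.1, 242.8, 208.4 and 244.2 in p16 (log2 fold change -0.25 ± 0.10, adjusted p of 0.23 by limma), with no overlap. Mrps17 ran the other way, with 181.7, 163.0, 197.1 and 131.4 against 212.7, 203.8, 202.2 and 226.1 (0.34 ± 0.13, adjusted p of 0.183), also with no overlap. Of 22 genes of mitochondrial import and chaperones 14 were below 0 with a median of -0.06. Tomm22, a receptor of the outer-membrane import pore, had 181.0, 184.8, 197.9 and 189.4 against 134.3, 145.2, 138.3 and 170.2 (-0.36 ± 0.11, adjusted p of 0.0923), and all 4 p16 libraries were lower than every control. Timm23, the channel of the inner-membrane import complex, had 8.2, 3.9, 7.5 and 9.2 in controls and between 11.5 and 12.5 in p16 (0.73 ± 0.30, adjusted p of 0.248), all p16 libraries higher than every control. The 8 genes of mitochondrial peroxide defence had a median of 0.00. None of these lists had a member past an adjusted p of 0.05, and the genes given here were named after their values were seen. Of all genes tested, 50.4% were below 0. The p16 values lay wholly below the controls for 5.63% of all genes and wholly above them for 4.19%.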
